A study of Oryzias latipes with 6 samples.

Results

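A set of 77 transcripts was lower in hearts of AXER-KO medaka than in hearts of WT medaka, and its levels were followed across all 6 genotypes sequenced. The members were chosen among 37495 transcripts by values of these data. Reads of each library were scaled to CPM, that is, reads of a transcript as a share of the column total scaled to a common total, and a transcript became a member when its mean over all 36 libraries was at least 5 CPM, its mean in WT medaka was at least 1.5 times that in KO medaka, and its highest KO library was below its lowest WT library. Because the KO and WT libraries without an active factor chose the members, the difference between KO and WT medaka is given below as a description and not as a finding. The tests concern the other 24 libraries, from medaka that carried an active factor, which entered the choice only through the mean over all libraries. The spread of each transcript was, however, estimated over all 36 libraries, and the non-overlap selects small spread in the 12 that chose the members. P-values of members may therefore be too small beside those of all transcripts, which was not tested. Members are numbered from the largest to the smallest ratio of the WT mean over the KO mean. The tables give Ensembl transcript identifiers alone, and none of them (0 of 37495) could be paired with a gene name, so the members have no gene names or roles here and whether several of them belong to 1 gene was not tested.

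AXER is the transporter of the ER membrane that exchanges ATP for ADP, and ER chaperones need the imported ATP to fold secretory and membrane proteins. When unfolded proteins accumulate in the ER, the unfolded protein response starts from sensors in the ER membrane. IRE1 splices XBP1 mRNA so that the active factor XBP1(S) is made, and ATF6α is cut to release its active nuclear fragment ATF6α(N). Both factors raise transcription of genes for ER chaperones. For genes that serve degradation of ER proteins, the study reports induction in medaka by XBP1(S) and none by ATF6α(N). The sensor PERK slows translation, and IRE1 can also lower transcripts, as it cleaves a number of mRNAs at the ER membrane.

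RNA-seq was carried out on whole hearts of medaka embryos at 5 d post-fertilization (dpf), with 6 libraries for each genotype. The genotypes were KO (AXER-/-), [KO + XBP1(S)] (AXER-/-, XBP1(S/+)) and [KO + ATF6(N)] (AXER-/-, ATF6(N/+)) medaka, and WT (AXER+/+), [WT + XBP1(S)] (AXER+/+, XBP1(S/+)) and [WT + ATF6(N)] (AXER+/+, ATF6(N/+)) medaka. XBP1(S/+) medaka have 1 allele of XBP1 edited so that the spliced form is made throughout the body from fertilization, and ATF6(N/+) medaka have 1 ATF6α allele edited so that the nuclear form is made. AXER was likewise lost in the whole embryo and not in the heart alone. The strain is HdrR in the labels and cab in the study's methods. The libraries of a genotype are numbered 1 to 6 in the order of the deposited columns, and a number shared by genotypes pairs nothing. Whether libraries of 1 genotype were made from different hearts or clutches is stated in neither, and p-values therefore measure only the spread among libraries, which can be technical.

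Libraries held 1850805 to 19619140 estimated reads, with a median of 4801415, and [KO + XBP1(S)] libraries were the shallowest. The study notes that the hearts held blood. Heart and erythrocyte markers could not be looked up without gene names, so the labelled tissue was not checked and the part of blood in the values was not tested. In whole hearts, fewer cells of a type and less RNA per cell cannot be told apart. The median value of a member rested on 127 reads in KO libraries, 74 in [KO + XBP1(S)], 142 in [KO + ATF6(N)], 174 in WT, 161.5 in [WT + XBP1(S)] and 187 in [WT + ATF6(N)] libraries. Of the 462 values of members in [KO + XBP1(S)] libraries, 20 rested on fewer than 10 reads, against 4 of 462 in [WT + XBP1(S)] libraries.

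The members covered a wide range of abundance. Their mean over all libraries was 5.04 to 1033 CPM, with a median of 31.2 CPM, against 15.98 CPM over the 11256 transcripts at or above 5 CPM on average, and 18 members were at 100 CPM or more. The most abundant was member 42. In the model fitted to all libraries, 25 of the 77 were called lower and none higher in KO than in WT medaka, against 0.205% and 0.437% of all transcripts, but this is the comparison that chose the members. The WT mean was 1.501 to 3.08 times the KO mean, with a median of 1.81 times, and it was at least 2 times the KO mean for 22 members. The last members inside the ratio were member 77 at 1.501 and member 76 at 1.508, and the first transcripts outside it were at 1.478 and 1.470. At the limit of abundance, member 22 had a mean of 5.04 CPM and member 12 of 5.79 CPM, and the first transcripts outside had 4.96 and 4.94 CPM. A further 74 transcripts of at least 5 CPM had no overlap but a smaller ratio, 674 had the ratio but overlapping libraries, and 19 were below 5 CPM on average.

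Membership depended on how libraries were scaled. Column totals place the median transcript 0.13 lower on the log2 scale in KO than in WT medaka, whereas after TMM normalization, which adjusts totals so that most transcripts do not shift, that median is 0.01. With TMM-normalized totals the rule gave 40 transcripts, of which 31 are among the 77. Limits of 5, 20 and 100 CPM and limits on the ratio of the WT mean over the KO mean stay on column totals. Other levels in the rest of the text are TMM-normalized CPM, unless column totals are named. On the TMM scale every KO library was below every WT library for 36 of the 77 members, against 0.577% of transcripts of at least 5 CPM. The other 41 overlapped on this scale. Non-overlap of these same libraries, scaled by column totals, chose the members, so the excess over 0.577% is a description and not a finding. The number of members also rested on single libraries, since the rule gave 135 transcripts without KO replicate 6 and 168 without WT replicate 5, among which were 77 and 76 of the members.

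The largest ratio was that of member 1, transcript ENSORLT00000031251.1. Its level was 64.2, 68.7 and 81.5 CPM in KO libraries (lowest, median and highest of 6), against 155, 208 and 222 CPM in WT libraries, and the groups lay far apart. It was 91.6, 123.7 and 146 CPM in [KO + XBP1(S)] libraries, against 125.8, 152 and 191 CPM in [WT + XBP1(S)] libraries, where the groups overlapped, and 74.1, 96.4 and 108.5 CPM in [KO + ATF6(N)] libraries, against 145, 176 and 203 CPM in [WT + ATF6(N)] libraries, where they did not. Member 3 had nearly the same level as member 1 in every genotype, with means of member 1 that were 0.989 to 1.04 times those of member 3.

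Member 2, transcript ENSORLT00000012272.2, was a low transcript with a wide spread. It was at 3.16, 5.81 and 8.38 CPM in KO libraries, against 7.87, 14.5 and 23.5 CPM in WT libraries, and these overlapped on the TMM scale. In [KO + XBP1(S)] libraries it was at 3.74, 9.53 and 69.8 CPM, against 4.91, 12.5 and 16.2 CPM in [WT + XBP1(S)] libraries, and the highest value came from replicate 5 alone. Without that library the mean of [KO + XBP1(S)] medaka was 9.17 ± 4.94 CPM (SD, n = 5), against 19.3 ± 25.1 CPM (SD, n = 6) with it. In [KO + ATF6(N)] libraries it was at 2.51, 5.82 and 13.6 CPM, against 2.59, 5.60 and 19.4 CPM in [WT + ATF6(N)] libraries, which overlapped.

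The remaining members among the 10 of largest ratio were a mixture of middle and low levels. Member 4 averaged 22.1 ± 5.91 CPM in KO medaka and 55.5 ± 13.4 CPM in WT medaka (SD, n = 6 each), and member 5 averaged 8.85 ± 2.57 CPM in KO medaka and 21.9 ± 2.04 CPM in WT medaka. Member 8 averaged 64.9 ± 9.27 CPM in KO medaka and 144 ± 22.6 CPM in WT medaka, and member 9 averaged 8.71 ± 1.78 CPM in KO medaka and 19.2 ± 5.78 CPM in WT medaka. Members 6, 7 and 10 had KO means of 4.52 to 7.45 CPM, against WT means of 9.21 to 16.6 CPM, so their ratios rest on few reads.

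The summed level of the 77 members was 3227, 3777 and 4281 CPM in KO libraries (lowest, median and highest), against 5604, 6377 and 6862 CPM in WT libraries. It was 3718, 4351 and 5036 CPM in [KO + XBP1(S)] libraries, against 5103, 5416 and 6930 CPM in [WT + XBP1(S)] libraries. In [KO + ATF6(N)] libraries it was 3696, 4074 and 4561 CPM, against 5203, 5511 and 6123 CPM in [WT + ATF6(N)] libraries. Each of the 18 AXER-/- libraries was thus below each of the 18 AXER+/+ libraries, of which the 6 KO and 6 WT libraries were set apart by the choice of members. This held for active ATF6 but not for active XBP1 when libraries were scaled by column totals, where the sums were 3609 to 5146 CPM in [KO + XBP1(S)] libraries, against 3938 to 6219 CPM in [WT + XBP1(S)] libraries, which overlapped, and 3209 to 4308 CPM in [KO + ATF6(N)] libraries, against 5285 to 6967 CPM in [WT + ATF6(N)] libraries. Without member 42, which alone had a mean of 805 ± 170.4 CPM in KO medaka and 1292 ± 265 CPM in WT medaka, the sums were 2663 to 3843 CPM in AXER-/- libraries and 4024 to 5304 CPM in AXER+/+ libraries.

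**Figure D1:**
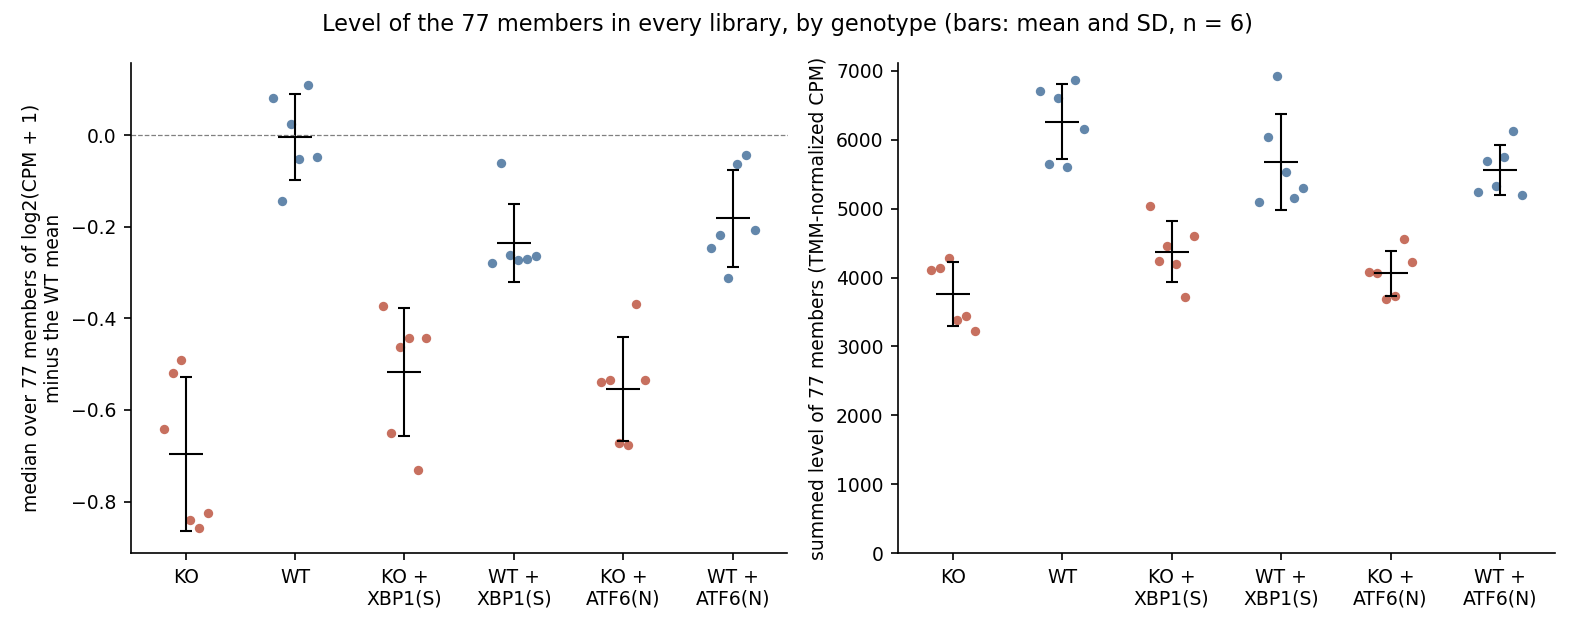
Level of the 77 members in each of 36 libraries, grouped by genotype on the horizontal axis, with points for libraries and black bars for the mean and SD of 6. The left panel shows the median over members of log2(CPM + 1) minus the WT mean, and the right panel their summed TMM-normalized CPM, in which AXER-/- libraries (red) lie between 3227 and 5036 CPM and AXER+/+ libraries (blue) between 5103 and 6930 CPM.

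The median over members, taken per library as the difference of log2(CPM + 1) from the WT mean, was -0.70 ± 0.17 in KO medaka and 0.00 ± 0.09 in WT medaka (SD, n = 6 each). It was -0.52 ± 0.14 in [KO + XBP1(S)] medaka and -0.23 ± 0.09 in [WT + XBP1(S)] medaka, and it was -0.55 ± 0.11 in [KO + ATF6(N)] medaka and -0.18 ± 0.11 in [WT + ATF6(N)] medaka. KO libraries were at -0.86 to -0.49 on this scale and at -0.89 to -0.73 when scaled by column totals, a scaling added here after the data were seen.

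Loss of AXER was then examined in medaka with active XBP1, by comparison of [KO + XBP1(S)] with [WT + XBP1(S)] libraries, none of which had served for the ratio or the non-overlap. The libraries that had served for these did enter the estimate of spread. Here 1 member, member 20, fell and none rose, where a call needed a fold change above 1.5 with an adjusted p under 0.05. Over all 18076 transcripts tested, 0.0664% fell and 0.116% rose (0.0277% and 0.138% with column totals). Member 20 was at 143, 170.3 and 187 CPM in [KO + XBP1(S)] libraries (lowest, median and highest), against 259, 283 and 481 CPM in [WT + XBP1(S)] libraries, with no overlap. Its log2 fold change was -0.90 (standard error (SE) 0.14 and adjusted p = 0.000198 by edgeR's quasi-likelihood test). The highest of these, 481 CPM, came from [WT + XBP1(S)] replicate 1, and with any 1 library left out the log2 fold change stayed between -0.96 and -0.74 and the adjusted p was at most 0.00115. It was also the only member of the 77 whose libraries did not overlap between these genotypes, against 0.249% of transcripts of at least 5 CPM.

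Most of the other members had negative values that did not pass. The log2 fold change was negative for 64 of 77 members, against 51.3% of all transcripts tested, with a median of -0.34 over members and -0.01 over all transcripts. At an unadjusted p under 0.05, 31 members were lower and 1 was higher, against 7.46% and 4.56% of all transcripts. The exception was member 61, named here after its values were seen, at 17.8, 26.1 and 33.2 CPM in [KO + XBP1(S)] libraries, against 10.2, 17.5 and 20.0 CPM in [WT + XBP1(S)] libraries. The largest negative value was that of member 32, also named after the fact, with a log2 fold change of -1.31 (SE 0.34, adjusted p = 0.103 by edgeR), which did not pass. Members 16 and 37 came closest to passing. Their log2 fold changes were -0.81 (SE 0.19) and -0.91 (SE 0.21), each at adjusted p = 0.0579 by edgeR. Member 37 was named after the fact, and member 16 was called with active ATF6, as given below. The count of calls was 3 without [KO + XBP1(S)] replicate 3 or without [WT + XBP1(S)] replicate 5, 2 without [KO + XBP1(S)] replicate 6 or [WT + XBP1(S)] replicate 4, and 5 with DESeq2. Shares of all transcripts called in these fits are not given, so a general rise in calls cannot be told apart.

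In medaka with active ATF6, the comparison of [KO + ATF6(N)] with [WT + ATF6(N)] libraries called more members. Here 11 members fell and none rose, whereas over all 18076 transcripts 0.138% fell and 0.465% rose (0.238% and 0.293% with column totals, which called 17 members). Of the 25 transcripts that fell, 11 were thus members. Here as in the other comparisons, the 18076 include transcripts under 5 CPM on average, as no member is. The part of abundance in these shares was not tested. The members called were 1, 3, 5, 8, 13, 14, 16, 20, 21, 34 and 50. In 15 of 77 members every [KO + ATF6(N)] library was below every [WT + ATF6(N)] library, against 0.604% of transcripts of at least 5 CPM, and 10 of the 11 called members were among these 15.

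The largest fall was in member 8. It was at 33.4, 58.2 and 70.8 CPM in [KO + ATF6(N)] libraries, against 125.3, 156 and 195 CPM in [WT + ATF6(N)] libraries, a log2 fold change of -1.49 (SE 0.17, adjusted p = 1.04e-07 by edgeR). The highest [KO + ATF6(N)] library was well below the lowest [WT + ATF6(N)] library. Member 1, given above by library, had a log2 fold change of -0.91 (SE 0.13, adjusted p = 6.9e-06), and member 3, close to it in level, had -0.95 (SE 0.14, adjusted p = 4.28e-05). Both were abundant, and neither overlapped.

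Members 20 and 50 were the most abundant of those called. Member 20 was at 138, 159.6 and 188 CPM in [KO + ATF6(N)] libraries, against 258, 292 and 344 CPM in [WT + ATF6(N)] libraries, a log2 fold change of -0.88 (SE 0.14, adjusted p = 7.82e-05 by edgeR). Member 50 was at 97.4, 132.9 and 158 CPM in [KO + ATF6(N)] libraries, against 213, 225 and 243 CPM in [WT + ATF6(N)] libraries, a log2 fold change of -0.82 (SE 0.14, adjusted p = 0.00045). In both members the groups lay apart. With any 1 library left out, members 1, 3, 8, 20, 34 and 50 were still called.

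**Figure D2:**
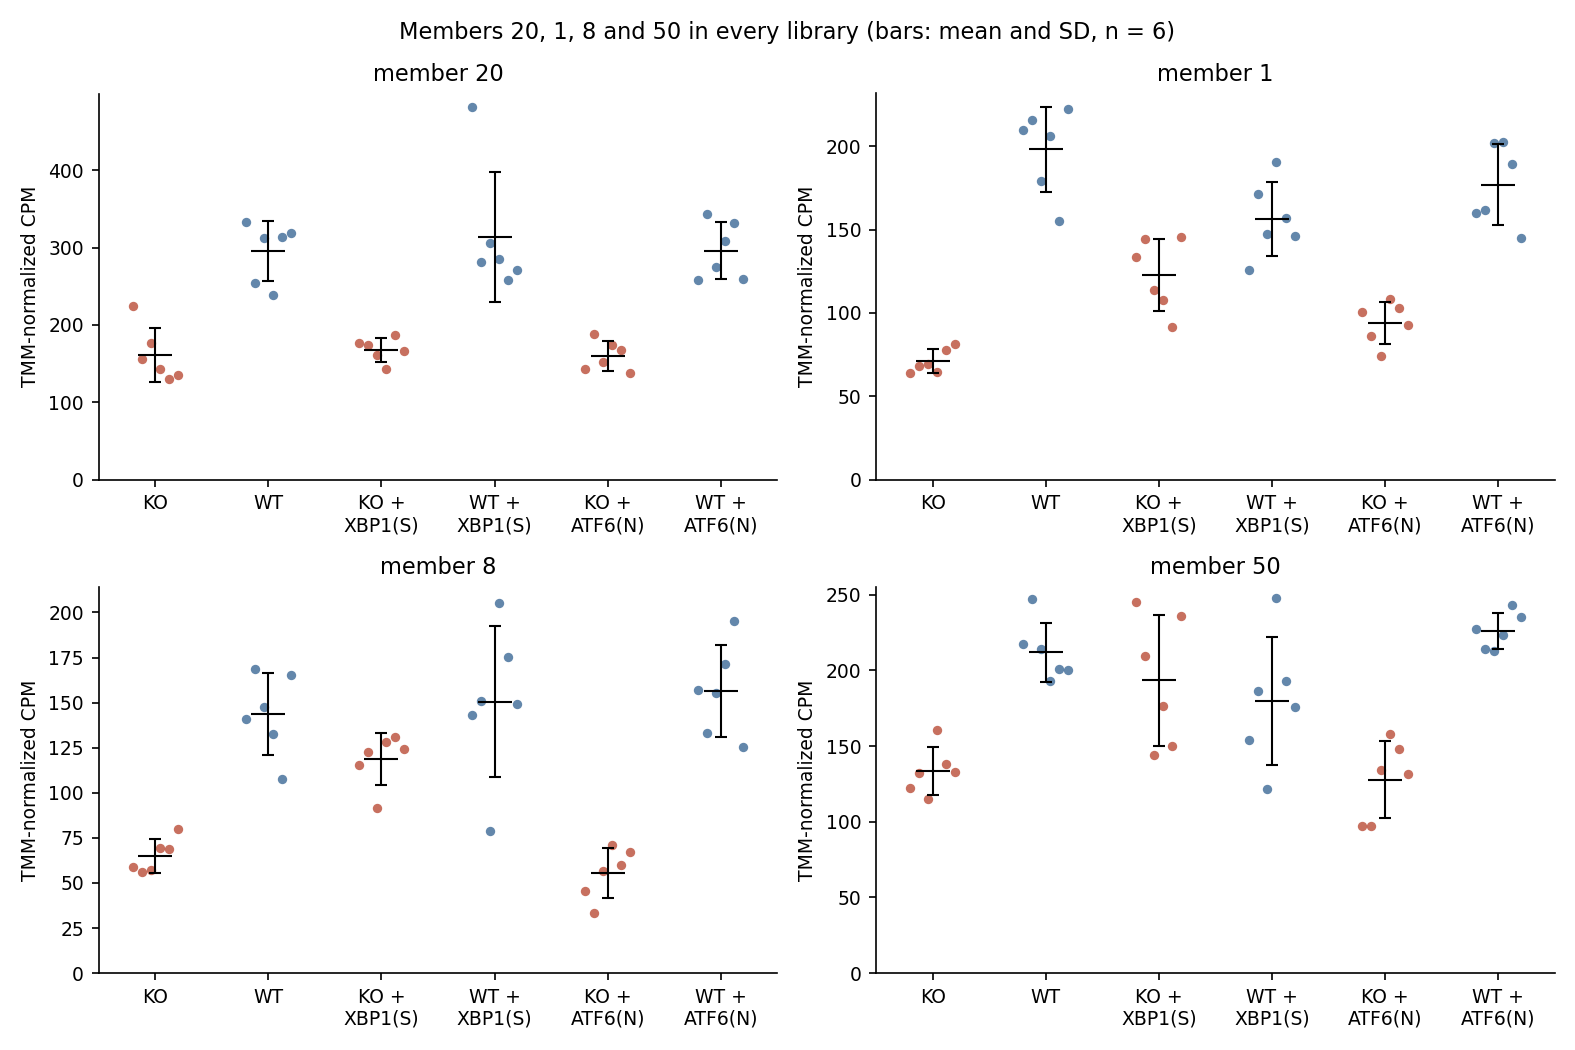
TMM-normalized CPM (vertical axes, from 0) of members 20, 1, 8 and 50 in each of 6 libraries of 6 genotypes (horizontal axes), with AXER-/- libraries in red, AXER+/+ libraries in blue and black bars for the mean and SD. Member 20 is low in every AXER-/- genotype, whereas members 8 and 50 have means of 118.9 and 193 CPM in [KO + XBP1(S)] medaka, against 55.6 and 127.8 CPM in [KO + ATF6(N)] medaka.

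Members 13 and 14 were another pair of like levels. Member 14 was at 60.9, 72.0 and 84.5 CPM in [KO + ATF6(N)] libraries, against 96.1, 114.9 and 149.6 CPM in [WT + ATF6(N)] libraries, with a log2 fold change of -0.71 (SE 0.15, adjusted p = 0.00537 by edgeR). Member 13 was at 57.7, 73.6 and 96.1 CPM in [KO + ATF6(N)] libraries, against 100.8, 118.8 and 140.3 CPM in [WT + ATF6(N)] libraries, with a log2 fold change of -0.68 (SE 0.16, adjusted p = 0.0292). In neither did the groups overlap. The call of member 14 was lost without [KO + ATF6(N)] replicate 3 (adjusted p = 0.0521) or [WT + ATF6(N)] replicate 5 (adjusted p = 0.0576). The call of member 13 was lost without any of [KO + ATF6(N)] replicates 1, 2, 3, 4 and 6 and [WT + ATF6(N)] replicates 2, 3, 4 and 5, with adjusted p up to 0.194.

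Of the 4 remaining calls, member 34 was the firmest. It was at 20.9, 31.5 and 36.2 CPM in [KO + ATF6(N)] libraries, against 43.7, 52.0 and 55.5 CPM in [WT + ATF6(N)] libraries, with a log2 fold change of -0.75 (SE 0.16, adjusted p = 0.00873 by edgeR). Member 16 was at 17.3, 27.5 and 38.7 CPM in [KO + ATF6(N)] libraries, against 40.9, 48.6 and 58.3 CPM in [WT + ATF6(N)] libraries, and had a log2 fold change of -0.83 (SE 0.19, adjusted p = 0.0137). Neither overlapped, and the call of member 16 was lost without [KO + ATF6(N)] replicate 4 (adjusted p = 0.0813) or replicate 5 (adjusted p = 0.0540).

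The calls of members 5 and 21 rested on more scattered libraries. Member 5 was at 2.10, 10.2 and 13.6 CPM in [KO + ATF6(N)] libraries, against 16.7, 19.8 and 27.5 CPM in [WT + ATF6(N)] libraries, with a log2 fold change of -1.22 (SE 0.29, adjusted p = 0.0247 by edgeR). Member 21 was at 13.6, 20.5 and 27.6 CPM in [KO + ATF6(N)] libraries, against 26.4, 34.5 and 53.8 CPM in [WT + ATF6(N)] libraries, with a log2 fold change of -0.84 (SE 0.20, adjusted p = 0.0299). Only member 21 overlapped, by its highest [KO + ATF6(N)] and lowest [WT + ATF6(N)] libraries. The call of member 5 was lost without [KO + ATF6(N)] replicate 1, 2 or 6 or [WT + ATF6(N)] replicate 3 or 6 (adjusted p up to 0.101), and that of member 21 without [KO + ATF6(N)] replicate 1, 5 or 6 or [WT + ATF6(N)] replicate 2, 5 or 6 (adjusted p up to 0.159).

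Over the whole set, the log2 fold change in medaka with active ATF6 was negative for 68 of 77 members, against 52.5% of all transcripts, with a median of -0.35 over members and -0.02 over all transcripts. At an unadjusted p under 0.05, 31 members were lower and none was higher, against 3.13% and 3.49% of all transcripts. Calls went mostly to abundant members, but shares of all transcripts called at like abundance are not given. Whether abundance has the same part in calls of transcripts in general was not tested. Of the 18 members at 100 CPM or more, all were negative and 7 were called, whereas of the 27 members under 20 CPM, 24 were negative and 1 was called. The 18 abundant members had a median of -0.43 and the 27 low ones of -0.29. For the 22 members whose WT mean was at least 2 times the KO mean, the median was -0.64 and 9 were called, and for the other 55 it was -0.27 and 2 were called.

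With active XBP1, the same 22 members had a median of -0.36 with 1 call, and the other 55 a median of -0.32 with none. There the 18 abundant members had a median of -0.355 with 1 call, and the 27 low ones of -0.364 with none. Scaling by column totals moved the median of all transcripts to 0.17 in medaka with active XBP1 and to -0.22 in medaka with active ATF6, and the medians over members to -0.18 and -0.54. Relative to all transcripts the members were then at -0.35 and -0.33, close to the values above.

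The 2 comparisons use different libraries throughout, apart from the shared estimate of spread. Negative in both were 57 members, and 2 were positive in both, against 26.5% and 22.7% of all transcripts tested. Lower at an unadjusted p under 0.05 in both were 13 members, against 0.514% of all transcripts. These were 41.9% of the 31 so found with active XBP1 and 41.9% of the 31 with active ATF6, close to the 40.3% of all 77 members that each list holds, so members lower in one comparison were not shown to be lower in the other more often than members in general. Member 20 was the 1 member called in both, with log2 fold changes of -0.90 and -0.88, and 66 were called in neither. Across the 77 members, which are not independent of each other, the 2 sets of log2 fold changes had a Pearson correlation of 0.11. Both were smaller than the fall without a factor, which the choice of members fixes as large: the median member had 45.0% of it in medaka with active XBP1 and 48.5% of it in medaka with active ATF6.

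**Figure D3:**
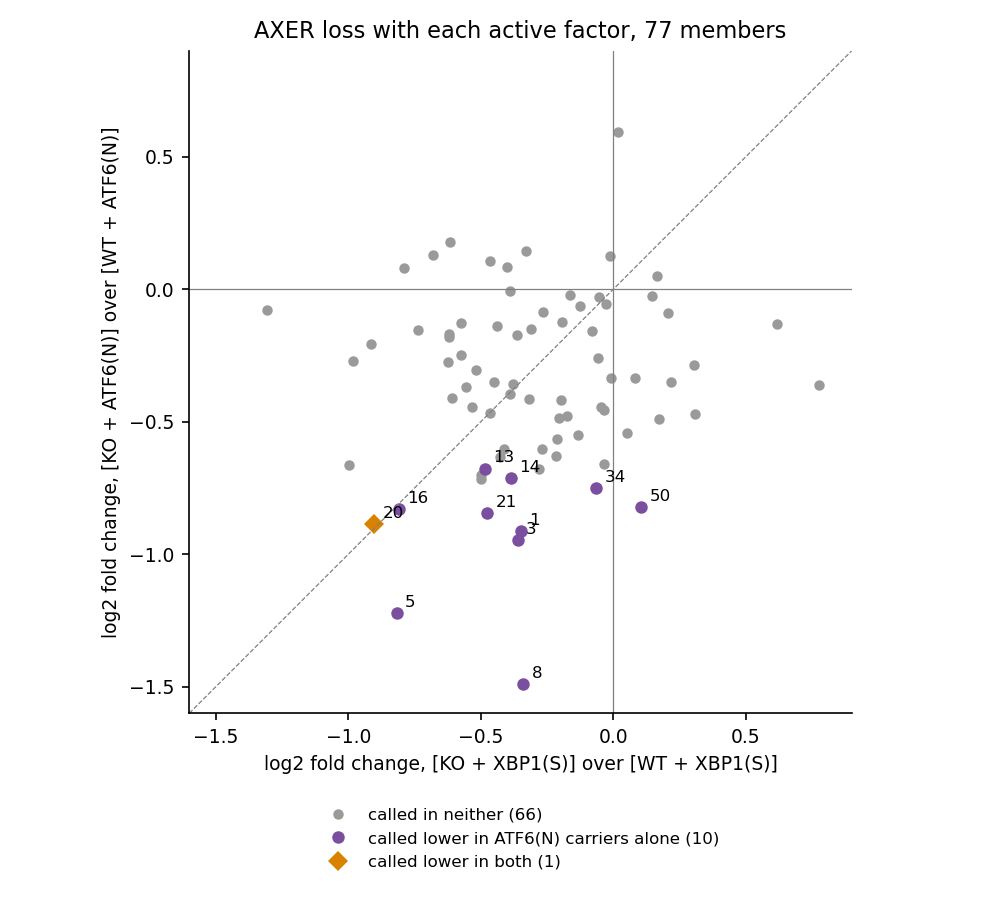
Log2 fold change of each of 77 members (points) between [KO + XBP1(S)] and [WT + XBP1(S)] medaka (horizontal axis) and between [KO + ATF6(N)] and [WT + ATF6(N)] medaka (vertical axis), with a dashed line of equal values. The 10 members called in medaka with active ATF6 alone are purple, member 20, called in both, is an orange diamond, and 57 points lie to the lower left, where both values are negative.

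Whether the loss of AXER differed between the 2 factors was tested directly. The difference was called for 1 member, member 8, and it was higher, meaning a smaller fall with active XBP1. Of all 18076 transcripts, 0.00553% were higher and 0.0498% lower. Member 8 was at 91.4, 123.6 and 131.2 CPM in [KO + XBP1(S)] libraries, against 79.0, 150.1 and 206 CPM in [WT + XBP1(S)] libraries, which overlapped, and the values with active ATF6 are given above. The difference of the log2 fold changes was 1.15 (SE 0.24, adjusted p = 0.0393 by edgeR). The call was lost in 15 of 24 fits with 1 library left out, which lacked [KO + XBP1(S)] replicate 2, 4, 5 or 6, [KO + ATF6(N)] replicate 1, 2, 3 or 5, [WT + XBP1(S)] replicate 1, 2 or 6, or [WT + ATF6(N)] replicate 1, 3, 4 or 5 (adjusted p = 0.0523 to 0.113), while the value stayed between 1.02 and 1.26. The other 10 members called in medaka with active ATF6 did not pass this test, so a difference between the factors is not shown for them. The nearest was member 50, with a difference of 0.93 (SE 0.20, adjusted p = 0.0714).

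The active factors were also compared with each other in AXER-KO medaka. Member 8 was higher in [KO + XBP1(S)] than in [KO + ATF6(N)] medaka, member 41 was lower, and no other member passed, against 0.122% of all transcripts higher and 0.0443% lower. The log2 fold change of member 8 was 1.10 (SE 0.17, adjusted p = 0.00105 by edgeR), from the libraries given above, and its lowest [KO + XBP1(S)] library was above its highest [KO + ATF6(N)] library. It was the 1 member so placed, against 0.498% of transcripts of at least 5 CPM. With any 1 library left out its adjusted p was at most 0.00748.

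Member 41 was at 1.82, 4.89 and 12.2 CPM in [KO + XBP1(S)] libraries, against 11.8, 13.4 and 19.6 CPM in [KO + ATF6(N)] libraries, with a log2 fold change of -1.37 (SE 0.31, adjusted p = 0.0466 by edgeR). The groups overlapped. Its call was lost without any of [KO + XBP1(S)] replicates 1, 3, 4, 5 and 6 and [KO + ATF6(N)] replicates 1 to 6 (adjusted p up to 0.161), and it held without [KO + XBP1(S)] replicate 2, where the log2 fold change was -1.74 (adjusted p = 0.00647 by edgeR). Member 50 was at 144, 193 and 245 CPM in [KO + XBP1(S)] libraries, against the lower [KO + ATF6(N)] values above, a log2 fold change of 0.60 (SE 0.14, adjusted p = 0.0746), which did not pass. Of 77 members, 39 were higher and 38 lower in [KO + XBP1(S)] medaka, with a median log2 fold change of 0.01, and at an unadjusted p under 0.05 12 were higher and 6 lower, against 3.74% and 3.88% of all transcripts.

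In medaka with intact AXER, no member was called between [WT + XBP1(S)] and [WT + ATF6(N)] libraries by edgeR, while 0.631% of all transcripts were higher and 0.0111% lower. At an unadjusted p under 0.05, 9 members were higher and 6 lower, against 5.24% and 3.53% of all transcripts. DESeq2 called 1 member, and its share of all transcripts is not given. The median log2 fold change over members was -0.05, against -0.01 over all transcripts.

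For a view of how far each member's level lay from that of KO medaka, its mean in a genotype was placed between the KO mean (0%) and the WT mean (100%). Since the choice of members set these ends apart, the places are a description. The median place was 21.2% in [KO + XBP1(S)] and 18.9% in [KO + ATF6(N)] medaka, and 67.2% in [WT + XBP1(S)] and 71.6% in [WT + ATF6(N)] medaka. At least 50% was reached by 21 members in [KO + XBP1(S)] and by 9 in [KO + ATF6(N)] medaka, but by 53 in [WT + XBP1(S)] and by 59 in [WT + ATF6(N)] medaka. Below the KO mean were 23 members in [KO + XBP1(S)] and 14 in [KO + ATF6(N)] medaka.

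Named members differed widely in their place. In [KO + XBP1(S)] medaka, member 1 lay at 40.7%, member 8 at 68.5%, member 50 at 76.3%, member 16 at 1.04% and member 20 at 5.21%, and member 41 lay below the KO mean at -67.1%. In [KO + ATF6(N)] medaka, member 1 lay at 18.2% and member 41 at 90.1%, whereas members 8, 20, 34 and 50 lay at -11.9%, -0.537%, -4.25% and -7.42%, that is, at or just below the KO mean. Member 16 lay at 3.47% there. By these places, members 20 and 16 were near the KO mean with either factor, and member 41 was near the WT mean with active ATF6 alone. This is a description, as no genotype with a factor was tested against KO or WT medaka. With AXER intact, member 41 lay at 1.94% in [WT + XBP1(S)] and at 75.9% in [WT + ATF6(N)] medaka. Its [WT + XBP1(S)] libraries, at 4.65 to 17.5 CPM, overlapped its WT libraries, at 11.6 to 21.8 CPM. Between [WT + XBP1(S)] and [WT + ATF6(N)] medaka, member 41 did not pass (log2 fold change -0.50, SE 0.29, adjusted p = 0.661 by edgeR). A lower level with active XBP1 than with active ATF6 is thus not shown for member 41 with AXER intact. Its call in KO medaka was lost in most fits that left out 1 library, as given above. The place of member 2 in [KO + XBP1(S)] medaka, 147%, came from the 1 high library named above.

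**Figure D4:**
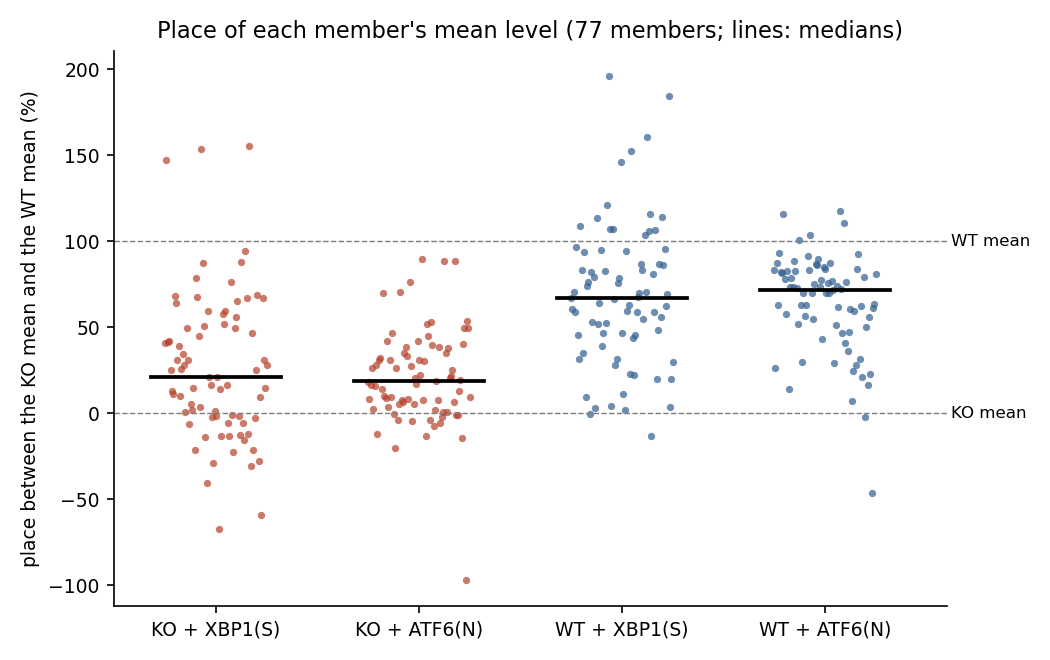
Place of the mean level of each of 77 members (points) between the KO mean (0%) and the WT mean (100%), on the vertical axis in percent, for 4 genotypes with an active factor on the horizontal axis, with black lines at the medians. The medians are 21.2% and 18.9% in the AXER-/- genotypes (red) and 67.2% and 71.6% in the AXER+/+ genotypes (blue), with wide scatter in each.

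Members did not move as a block from library to library. Over the 24 libraries with an active factor, the Pearson correlation of log2(CPM + 1) had a median of 0.18 over the 2926 pairs of members, which share libraries and depth, and it was above 0.95 for 3 pairs. Transcripts most alike to member 1 among the 11256 of at least 5 CPM were members 3, 14 and 13, with correlations of 0.987, 0.850 and 0.811. In 5 pairs the means of both members were within 10% of each other in every genotype. These were members 1 and 3, 13 and 14, 39 and 43, 18 and 26, and 44 and 55, with correlations of 0.987, 0.954, 0.939, 0.901 and 0.786. Estimated reads of members 44 and 55 were 104.678 and 91.322 in [KO + XBP1(S)] replicate 4, which add to a whole number. Those of members 39 and 43 were 101.498 and 93.502 in [WT + XBP1(S)] replicate 3, which do so too. No such fit was seen in the rest of these 5 pairs. Members 67 and 71 had a correlation of 0.962 but lay further apart, with means of member 67 at 1.13 to 1.20 times those of member 71. Their estimated reads were 1180.6 and 1030.4 in KO replicate 3, which also add to a whole number. Such pairs may share a gene or reads, which was not tested. None of the pairs with this fit was called with active ATF6. Members 1 and 3 and members 13 and 14 were called, as pairs alike in level alone. The 11 members called may still stand for fewer than 11 genes, which was not tested either.

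The members varied less between libraries of a genotype than transcripts of at least 5 CPM did. Their median coefficient of variation was 21.4% in KO and 16.6% in WT medaka, against 26.7% and 26.7% over those transcripts, though a requirement of no overlap selects small spread in just these libraries. It was 27.6% in [KO + XBP1(S)] medaka and 26.5% in [WT + XBP1(S)] medaka, against 32.7% and 31.8%, and 22.2% in [KO + ATF6(N)] medaka and 20.1% in [WT + ATF6(N)] medaka, against 25.1% and 24.2%. Members are also more abundant than the transcripts they are set beside. The fit, however, used 1 estimate of spread per transcript for all 6 genotypes, so the wider spread with active XBP1 did not enter that comparison alone. The median standard error over members was 0.206 with active XBP1 and 0.202 with active ATF6. P-values may therefore be too small with active XBP1 and too large with active ATF6. The part of spread in the number of calls was not tested.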

How the data were processed

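RNA-seq followed the Lasy-Seq protocol, in which each RNA sample is indexed during reverse transcription and pooled. Per the submitters' processing notes, reads were trimmed with fastp 0.21.0, mapped with BWA 0.7.17-r1188 and counted with Salmon, and the authors deposited the estimated count of each library for 37495 transcripts. These notes and the methods name a mouse reference (GRCm38), whereas every identifier is a medaka Ensembl transcript. Of the estimated counts deposited, 1.88% were not whole (tolerance 1e-06).

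The counts were rounded and tested in R 4.3.3 with edgeR 4.0.16: filterByExpr by genotype (18076 transcripts and all 77 members left), TMM, and a robust quasi-likelihood fit with 1 mean per genotype over 36 libraries. Calls needed a Benjamini-Hochberg adjusted p under 0.05 over all transcripts tested and a fold change above 1.5. Standard errors were computed as the log2 fold change over the root of the F statistic. A fold change between groups is AXER-/- over AXER+/+, or XBP1(S) over ATF6(N). The fit was also run on data simulated from its own model with transcripts picked at random, so the effect of the choice of members was not tested.

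Named were the 10 members of largest ratio, those called in any of the 5 tested comparisons, and those next to the limits of 1.5 times and 5 CPM. Members 32, 37, 42, 61, 67 and 71 and the pairs of like level (39 and 43, 18 and 26, 44 and 55) fall outside this rule and were named after their values were seen. Only 2 identifiers are printed. The members, lists and comparisons were chosen with earlier results of these data known. Gene lists and cell type markers could not be matched without gene names. Alternatives were DESeq2 1.42.0, limma-voom (limma 3.58.1), other scalings, no filter, the genotypes compared alone, other limits of the rule and leaving out each library. Depth limits low members most, and counting error is only part of the spread.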

Additional observations from a re-analysis of the deposited data

Results flagged for a closer look

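A library far from the other 5 of its genotype was looked for in 144 groups, which were the 6 genotypes for each of 22 named members and 2 summaries over all members. A gap to the nearest library above Dixon's critical value, as a share of the range of all 6, marked 10 groups, and chance marks about 1 in 20 groups. For the low members these were member 2 in [KO + XBP1(S)] replicate 5, at 69.8 CPM, against 16.8 CPM in the next library, and member 6 in [KO + ATF6(N)] replicate 6, at 10.6 CPM, and in [WT + ATF6(N)] replicate 1, at 21.0 CPM. Member 7 was at 21.8 CPM in [KO + ATF6(N)] replicate 1 and at 27.7 CPM in WT replicate 1. Member 12 was at 15.5 CPM in [KO + ATF6(N)] replicate 1 and at 10.8 CPM in [WT + ATF6(N)] replicate 1. Member 41 was at 21.8 CPM in WT replicate 4, against 14.4 CPM in the next library. Among abundant members, member 20 was at 481 CPM in [WT + XBP1(S)] replicate 1, against 306 CPM in the next library, and without it the mean was 280.3 ± 17.7 CPM (SD, n = 5). The median over members, as log2 difference from the WT mean, was -0.0603 in [WT + XBP1(S)] replicate 2, against -0.26 in the nearest of the other 5 libraries.

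The effect of AXER loss on member 8 differed between medaka with active XBP1 and with active ATF6 by 1.15 on the log2 scale (adjusted p = 0.0393 by edgeR), and this call was lost in 15 of 24 fits that left out 1 library.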

How the results depend on the processing

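The rule gave 1.70 times as many transcripts as the 77 members at a ratio of 1.3, 0.286 times as many (22) at a ratio of 2 and 0.519 times as many (40) with TMM-normalized totals, and 1.08 to 2.18 times as many (83 to 168) with 1 KO or WT library left out. Members called with active XBP1 (1) were 5 by DESeq2, and 1 to 3 with 1 library left out. Members called with active ATF6 (11) were 17 with column totals, a scaling added for counts of calls after seeing the data, under which 0.238% of all transcripts fell, against 0.138% with TMM, and 8 to 11 with 1 library left out. The difference between factors (1 member) gave 2 by DESeq2 and 2 by limma-voom, but 0 with column totals, 0 without the filter and 0 in the genotypes compared alone, and 0 to 2 with 1 library left out. XBP1(S) against ATF6(N) in KO medaka (2 members) gave 1 by limma-voom, 1 with column totals, 1 without the filter, 1 in the genotypes compared alone, and 1 to 2 with 1 library left out. In WT medaka (0 members) it gave 1 by DESeq2 and 1 with column totals, and 0 to 0 with 1 library left out. Except for column totals, shares of all transcripts called are not given for these settings, so a general change in calls cannot be told apart. The causes were not tested. For the difference between factors, column totals called 0 of all 18076 transcripts lower and 0 higher (TMM 9 and 1). Among all calls, column totals gave 4 lower and 30 higher (TMM 8 and 22) for XBP1(S) against ATF6(N) in KO medaka, and 10 and 57 (TMM 2 and 114) in WT medaka. The median log2 fold change over members was -0.18 with active XBP1 and -0.54 with active ATF6 with column totals, and -0.38 to -0.28 and -0.41 to -0.27 with 1 library left out. No value of a named call changed sign. Members 1, 3, 8, 14, 16, 20, 34 and 50 were called with active ATF6, and member 20 with active XBP1, in all 6 other settings, whereas members 5, 13 and 21 were lost in 1, 1 and 2 of them, the difference for member 8 in 3 and the call of member 41 in KO medaka in 5. These settings include the fit on the genotypes compared alone, which leaves out the libraries that chose the members. No paired analysis was possible because the labels give no replicate numbers, and those used here follow the order of the deposited columns.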
